A study of Mus musculus with 12 samples.

Results

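Interferon-stimulated genes are the antiviral effectors, nucleic acid sensors and transcription factors that cells switch on when interferon reaches its receptors. A list of 33 such gene symbols was followed in mouse liver. The members were chosen by name, with earlier results of these data known. Each was read from its brightest probe set on average over the 12 arrays. Of the 33 members, 30 were measured, among 18194 genes with a symbol of their own on the array. The other 3 were left out: the probe set of Isg15 also carries the symbol of a second gene, and no probe set used here carries the symbol Ifi44 or Eif2ak2x. Eif2ak2, the RNA-activated kinase PKR, was therefore counted among the other pathway genes.

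The livers came from mice of mixed SV129 and C57Bl/6 background in 4 groups: LG2KO refed, LG2KO fasted, control refed and control fasted. LG2KO is not spelled out in the labels and is read here as a liver knockout of the glucose transporter Glut2, encoded by Slc2a2. The LG2KO mice had been treated with tamoxifen. No such treatment is named for the control mice, so the effects of genotype and of tamoxifen cannot be told apart. The refed mice had been fasted and then given food, and the fasted mice had not. Each group has 3 arrays, and each array holds RNA pooled from 3 animals, so n = 3 pools per group throughout. The labels of the LG2KO fasted arrays conflict: 1 field names refed mice, but the title and the diet entry name fasted mice, and these were followed. Age, sex, the length of the fast, the alleles and the promoter that drives the deletion are not stated in the labels. The study's title links glucose sensing in liver to the glucose competence of pancreatic beta cells.

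The deposited values are RMA log2 expression values, on which a difference of 1 is a doubling, and values of different genes are not compared as levels because probe sets differ in brightness. Slc2a2 was lower in every LG2KO array than in every control array of its feeding state, with LG2KO minus control differences of -7.21 ± 0.25 after refeeding and -6.73 ± 0.25 in the fasted state (log2 difference ± standard error, as throughout unless an SD is named). Arrays of a group correlated at 0.984 to 0.996 across probe sets, and none of them were identical. Control refed replicate 1 and LG2KO fasted replicate 3 stood apart, with correlations of at most 0.988 to the rest of their groups, against at least 0.994 among the other arrays. Each count of members below was therefore repeated without those 2 arrays. Ctrb1, a protease precursor of exocrine pancreas, was at 9.18 on control fasted replicate 3 and at most at 5.51 on the other arrays. Of the members, 8 had a mean below the median of all genes, which was 5.91, namely Ifit1, Ifit2, Mx1, Oas3, Oasl2, Gbp2, Gbp3 and Trim30a.

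Interferons of type I signal through the receptor pair IFNAR1 and IFNAR2 and the kinases JAK1 and TYK2. These activate a complex that contains STAT2 and IRF9 and binds a DNA element called the interferon-stimulated response element, or ISRE. Interferon gamma acts through another DNA element, the gamma-activated site, or GAS. Upstream, RNA sensors such as RIG-I (Ddx58) and MDA5 (Ifih1), with their regulators LGP2 (Dhx58) and TRIM25, and the DNA and RNA sensor ZBP1 start interferon production. In liver these genes are known for their strong induction by viral infection, in hepatocytes as well as in resident macrophages, and several are expressed at a low level without infection.

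The promoters of the 5 members with the smallest adjusted p in any comparison and 1 promoter in the table are shown here because the members are defined by a response that works through such sequence. They are RefSeq sequences of build GRCm38.p6, covering 250 bases before and 50 bases after the transcription start, printed 5′ to 3′ along the gene. Capitals mark matches to the ISRE pattern, which is GAAA, any 2 bases, GAAA, or to the GAS pattern TTCNNNGAA, on either strand. Bst2 lies on the minus strand (chr8:71537423-71537722), Oasl1 on the plus strand (chr5:114922990-114923289), Ifi35 on the plus strand (chr11:101448162-101448461), Cxcl10 on the minus strand (chr5:92348840-92349139) and Stat2 on the plus strand (chr10:128270248-128270547).
Bst2: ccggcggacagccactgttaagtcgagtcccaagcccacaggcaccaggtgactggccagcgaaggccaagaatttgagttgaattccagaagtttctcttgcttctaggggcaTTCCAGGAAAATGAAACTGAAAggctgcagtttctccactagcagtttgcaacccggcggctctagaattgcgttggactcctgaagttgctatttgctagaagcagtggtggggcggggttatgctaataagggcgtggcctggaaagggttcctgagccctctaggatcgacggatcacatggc
Oasl1: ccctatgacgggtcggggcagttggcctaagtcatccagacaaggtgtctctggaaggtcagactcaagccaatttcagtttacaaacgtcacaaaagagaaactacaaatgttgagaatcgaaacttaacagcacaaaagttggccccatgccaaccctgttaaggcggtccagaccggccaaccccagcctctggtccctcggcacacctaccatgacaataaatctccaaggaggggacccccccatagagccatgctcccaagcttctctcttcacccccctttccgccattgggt
Ifi35: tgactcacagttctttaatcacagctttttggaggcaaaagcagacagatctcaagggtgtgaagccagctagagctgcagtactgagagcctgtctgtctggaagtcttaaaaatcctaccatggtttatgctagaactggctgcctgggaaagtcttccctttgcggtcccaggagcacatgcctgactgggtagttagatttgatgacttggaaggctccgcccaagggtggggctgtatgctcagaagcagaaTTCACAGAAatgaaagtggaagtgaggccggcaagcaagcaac
Cxcl10: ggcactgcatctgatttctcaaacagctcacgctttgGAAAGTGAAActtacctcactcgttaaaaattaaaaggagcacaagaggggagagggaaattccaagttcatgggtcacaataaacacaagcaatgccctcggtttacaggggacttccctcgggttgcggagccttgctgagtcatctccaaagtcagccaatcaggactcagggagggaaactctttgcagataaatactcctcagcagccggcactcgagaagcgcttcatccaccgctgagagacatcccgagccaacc
Stat2: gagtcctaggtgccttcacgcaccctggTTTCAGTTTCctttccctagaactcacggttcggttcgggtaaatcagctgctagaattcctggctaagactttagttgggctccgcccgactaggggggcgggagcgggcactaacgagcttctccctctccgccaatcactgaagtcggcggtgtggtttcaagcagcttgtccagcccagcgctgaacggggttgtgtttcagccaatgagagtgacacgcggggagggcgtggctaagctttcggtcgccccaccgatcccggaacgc
The Bst2 window holds a GAS match at -136 that runs into a pair of overlapping ISRE matches at -130 and -124, positions being those of the first base relative to the start. In the Cxcl10 window the ISRE match stands at -213, and in the Stat2 window at -222 on the other strand. The Ifi35 window has a GAS match just after the start, at 8, and the Oasl1 window has a match to neither pattern. Among the 22 measured members with a promoter in the table, 12 had an ISRE match, which is 54.5% against 3.99% of all 27025 genes with a promoter of that length. GAS matches were found for 5 of the 22, or 22.7%, against 9.55% of all genes. Of the 8 members that passed with feeding and had a promoter, 3 had an ISRE match and 3 a GAS match. Of the 14 that did not pass, 9 had an ISRE match and 2 a GAS match. These sets are small, some genes such as Isg20 had more than 1 promoter, and the difference between the sets was not tested. A match is a description of letters and not a binding site.

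The first question was how the members respond to a meal. In LG2KO livers 8 members rose and 1 fell with refeeding, so 9 of 30 passed at an adjusted p below 0.05 in limma's test across all genes (30%), against 7.05% of all genes tested. In control livers 5 rose and 1 fell, so 6 of 30 passed (20%), against 6.46% of all genes. Of all genes, 4.66% rose and 2.4% fell in LG2KO livers, and 3.29% rose and 3.17% fell in control livers. The members were Oasl1, Dhx58, Bst2, Ifi35 and Stat2, which rose in both genotypes, Trim25, which fell in both, and Xaf1, Isg20 and Cxcl10, which passed as rises in LG2KO livers. The median refed minus fasted difference over the 30 members was 0.26 in LG2KO livers and 0.24 in control livers, against 0.01 and -0.01 over all genes. The members that passed in control livers were all among those that passed in LG2KO livers, so the 6 shared members are 100% of the control calls and 66.7% of the LG2KO calls. These 2 comparisons share no arrays, but they share the fit's estimate of spread.

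Without the 2 arrays that stand apart, the same 9 and 6 members passed, while the share of all genes that passed was 17.5% in LG2KO livers and 12.1% in control livers. The median of the members was then 0.18 in LG2KO livers and 0.09 in control livers. The control median rested on single arrays: it was 0.09 without control refed replicate 1 alone and 0.08 without control fasted replicate 1 alone. The count in LG2KO livers was 4 without LG2KO fasted replicate 1 and 5 without either LG2KO refed replicate 1 or LG2KO refed replicate 3. Calls over all genes in those smaller fits are not given, so these counts cannot be set against a background. In bulk liver, fewer cells of a type and less RNA per cell cannot be told apart.

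**Figure D1:**
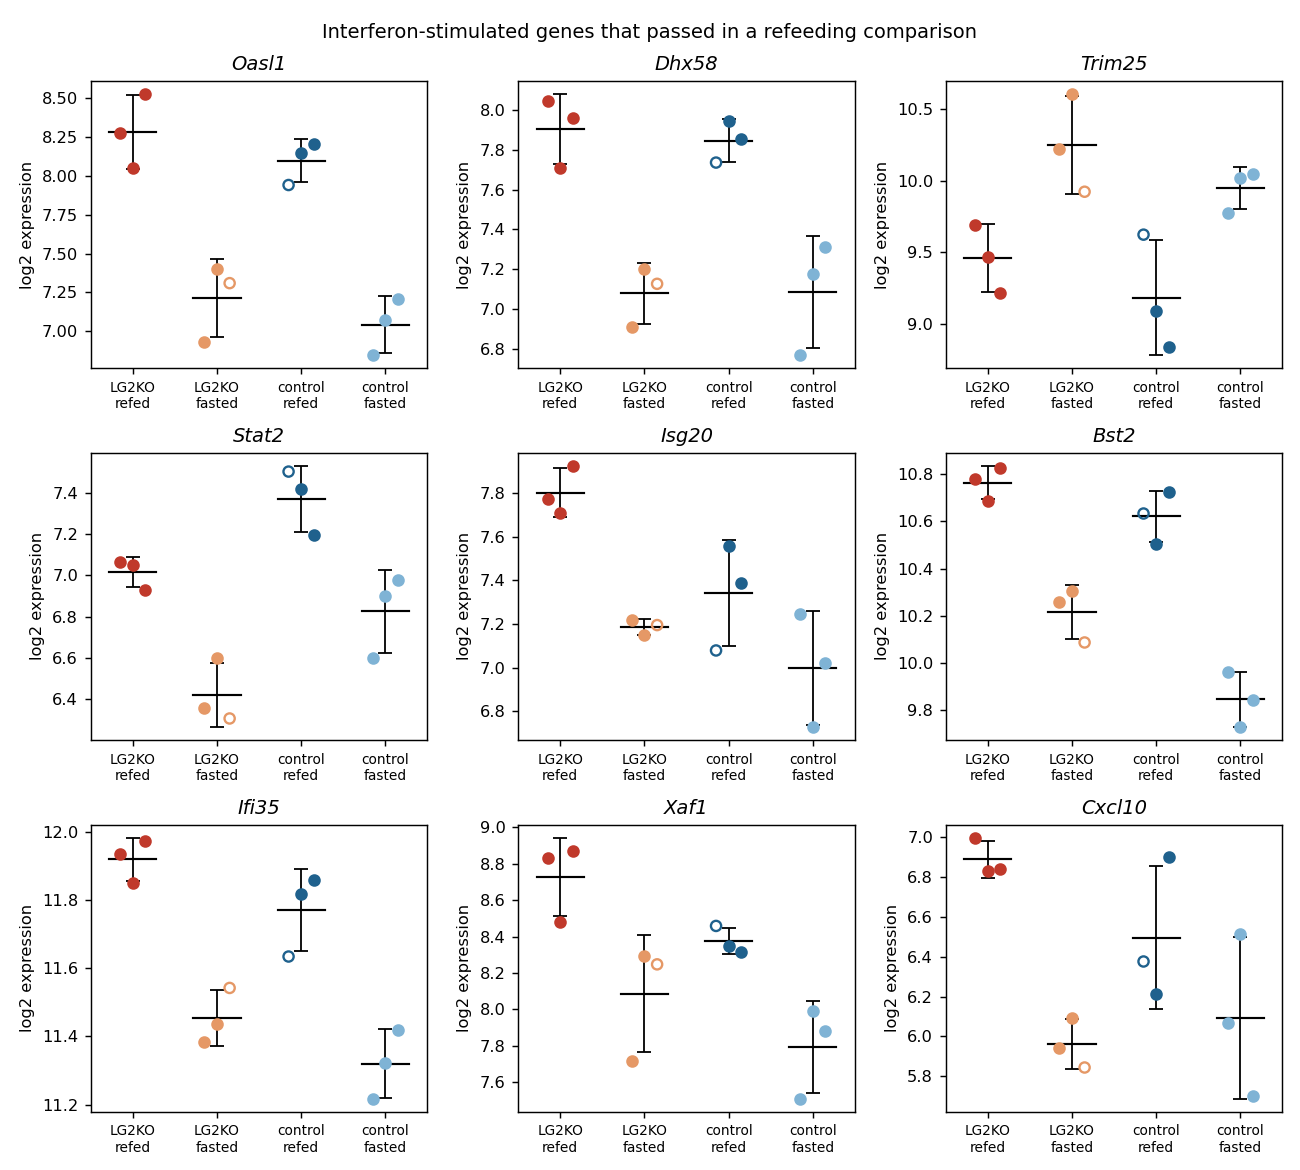
RMA log2 expression (vertical axes, which do not start at 0) of the 9 members that passed in a refeeding comparison, by group. Points are arrays of 3 pooled animals, open points are the 2 arrays that stand apart, lines are means and bars are ± 1 SD (n = 3). Oasl1, Dhx58, Bst2, Ifi35, Stat2, Xaf1 and Trim25 show no overlap of refed and fasted arrays within either genotype.

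Among the 4 members of the OAS family, whose proteins recognise double-stranded RNA or resemble those that do, Oasl1 stood alone in passing. Oasl1, an OAS-like protein without the enzyme's activity that restrains translation of Irf7 in mouse, was at 8.27, 8.05 and 8.52 in refed LG2KO livers, against 6.93, 7.40 and 7.31 in fasted LG2KO livers. In control livers it was at 7.94, 8.15 and 8.21 after refeeding, against 6.85, 7.07 and 7.21 in the fasted state. Every refed array lay above every fasted array of its genotype. The difference was 1.07 ± 0.16 in LG2KO livers (adjusted p = 0.00161) and 1.05 ± 0.16 in control livers (adjusted p = 0.00171), each close to a doubling. Oasl2, its relative that keeps the enzyme's activity, was at 6.41, 5.61 and 6.48 in refed LG2KO livers, against 5.76, 5.87 and 5.17 in fasted ones, so the groups overlapped. Its difference was 0.57 ± 0.24 in LG2KO livers (adjusted p = 0.214) and 0.31 ± 0.24 in control livers (adjusted p = 0.623), and it passed in LG2KO livers without LG2KO refed replicate 2 (0.85, adjusted p = 0.0444). Oas2 and Oas3, which make the second messenger that activates RNase L, had differences of 0.26 and -0.01 in LG2KO livers, and -0.03 and 0.05 in control livers, and did not pass.

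Of the 5 sensors and their regulators, Dhx58 rose and Trim25 fell in both genotypes. Dhx58, which encodes the RIG-I-like receptor LGP2, was at 8.05, 7.71 and 7.96 in refed LG2KO livers, against 6.91, 7.20 and 7.13 in fasted ones. Refed control livers had 7.74, 7.95 and 7.86, against 6.77, 7.17 and 7.31 in fasted controls. The refed and fasted arrays did not overlap in either genotype, and the differences were 0.83 ± 0.15 in LG2KO livers (adjusted p = 0.00595) and 0.76 ± 0.15 in control livers (adjusted p = 0.00924). Its dimmer probe sets, fitted with all probe sets, moved the same way by 0.73 and 0.29 in LG2KO livers and by 0.69 and 0.21 in control livers, without passing.

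Trim25, the ubiquitin ligase that activates RIG-I and that also conjugates ISG15, was the one member whose fall passed. It was at 9.69, 9.47 and 9.22 in refed LG2KO livers, against 10.22, 10.61 and 9.92 in fasted ones, and at 9.62, 9.09 and 8.84 in refed control livers, against 9.78, 10.02 and 10.05 in fasted ones. No refed array reached the fasted arrays of its genotype, but control refed replicate 1 came near them. The difference was -0.79 ± 0.21 in LG2KO livers (adjusted p = 0.0385) and -0.77 ± 0.21 in control livers (adjusted p = 0.0480). These calls were near the threshold. In control livers the call was kept only when the array left out was control refed replicate 1, LG2KO fasted replicate 2 or LG2KO fasted replicate 3, and in LG2KO livers only when it was control refed replicate 1, control refed replicate 3, LG2KO refed replicate 1 or LG2KO fasted replicate 3. Over all 12 fits that left out 1 array, kept or lost, the difference lay between -0.96 and -0.61 in LG2KO livers and between -0.99 and -0.59 in control livers. With the mean of its probe sets the Trim25 difference was -0.41 in LG2KO livers (adjusted p = 0.201) and -0.57 in control livers (adjusted p = 0.0656). The control call was also lost without the intensity trend, with the robust prior and with only the groups compared in the fit (adjusted p between 0.0565 and 0.0722). Without the 2 arrays that stand apart it was -0.96 ± 0.16 in LG2KO livers and -0.99 ± 0.16 in control livers. A second bright probe set of Trim25 gave -0.64 in LG2KO livers (adjusted p = 0.0861) and -0.75 in control livers (adjusted p = 0.0423), and a dim further one gave 0.21 and -0.18.

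The RNA sensor genes Ddx58 and Ifih1 did not pass. Ddx58, encoding RIG-I, had 8.10, 7.98 and 8.26 in refed LG2KO livers, against 7.99, 7.86 and 7.55 in fasted ones, with a difference of 0.31 ± 0.15 (adjusted p = 0.299). In control livers it had 8.42, 8.12 and 8.23 after refeeding, against 7.54, 7.85 and 7.95 in the fasted state, with a difference of 0.48 ± 0.15 (adjusted p = 0.0859). Its control arrays did not overlap and its LG2KO arrays did, and the control difference passed with array weights (0.39, adjusted p = 0.0459) and among genes above the median level only (adjusted p = 0.0480). Ifih1, encoding MDA5, differed by 0.01 ± 0.27 in LG2KO livers and by 0.25 ± 0.27 in control livers. Zbp1, which senses nucleic acids in the Z form and can start necroptosis, depended on the probe set. Its brightest probe set gave 0.77 ± 0.25 in LG2KO livers (adjusted p = 0.0986) and 0.49 ± 0.25 in control livers (adjusted p = 0.379). Its second probe set, fitted with all probe sets, gave 1.11 ± 0.16 in LG2KO livers (adjusted p = 0.00128) and 0.67 ± 0.16 in control livers (adjusted p = 0.0277). On that probe set the refed arrays were at 6.97, 6.46 and 7.06 in LG2KO livers, against 5.52, 5.81 and 5.83 in fasted ones, and at 6.69, 6.56 and 6.61 in control livers, against 5.83, 6.04 and 5.96. Neither genotype showed overlap on that probe set or on the brightest one. The brightest probe set passed in LG2KO livers with array weights (0.82, adjusted p = 0.0232) and without LG2KO refed replicate 2 (1.09, adjusted p = 0.0112).

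The 4 transcription factors split: Stat2 passed, and Irf1, Irf7 and Irf9 did not. Stat2, a subunit of the factor that binds the ISRE, was at 7.06, 7.05 and 6.93 in refed LG2KO livers, against 6.36, 6.60 and 6.31 in fasted ones. It was at 7.50, 7.42 and 7.19 in refed control livers, against 6.60, 6.90 and 6.98 in fasted ones. The difference was 0.59 ± 0.14 in LG2KO livers (adjusted p = 0.0185) and 0.55 ± 0.14 in control livers (adjusted p = 0.0297). Each refed array was above the fasted arrays of its genotype. The call was lost in control livers without control refed replicate 1 (0.48), control refed replicate 2 (0.52), control fasted replicate 1 (0.43) or control fasted replicate 2 (0.58), and in LG2KO livers without LG2KO refed replicate 1 (0.57), LG2KO refed replicate 2 (0.58) or LG2KO fasted replicate 1 (0.56). A second probe set of Stat2 gave 0.59 in LG2KO livers (adjusted p = 0.0297) and 0.48 in control livers (adjusted p = 0.0784). Irf7, the factor that amplifies interferon alpha production, differed by 0.26 ± 0.17 in LG2KO livers and by 0.12 ± 0.17 in control livers. Irf9, the DNA-binding partner of STAT2, differed by 0.28 ± 0.13 and 0.04 ± 0.13, and Irf1, a target of interferon gamma, by 0.33 ± 0.12 and 0.01 ± 0.12, in LG2KO and control livers in that order. With array weights Irf1 passed in LG2KO livers (0.40, adjusted p = 0.0240).

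Of the remaining effectors, Bst2 and Ifi35 rose in both genotypes. Bst2, or tetherin, holds budding viruses at the cell surface. It was at 10.78, 10.69 and 10.83 in refed LG2KO livers, against 10.26, 10.30 and 10.09 in fasted ones, and at 10.63, 10.51 and 10.72 in refed control livers, against 9.96, 9.73 and 9.84 in fasted ones. Its refed and fasted arrays lay well apart in both genotypes. The difference was 0.55 ± 0.09 in LG2KO livers (adjusted p = 0.00339) and 0.78 ± 0.09 in control livers (adjusted p = 0.000297), the smallest adjusted p of any member in any comparison. Ifi35, an interferon-induced leucine zipper protein that is also released as a danger signal, was at 11.93, 11.85 and 11.98 in refed LG2KO livers, against 11.38, 11.44 and 11.54 in fasted ones. Control livers had 11.63, 11.82 and 11.86 after refeeding, against 11.22, 11.32 and 11.42 in the fasted state. These arrays did not overlap within a genotype, and the difference was 0.47 ± 0.08 in LG2KO livers (adjusted p = 0.00360) and 0.45 ± 0.08 in control livers (adjusted p = 0.00410). Its other probe sets, fitted with all probe sets, also passed, with differences of 0.47 and 0.69 in LG2KO livers and of 0.57 and 0.53 in control livers. The calls of Oasl1, Dhx58, Bst2 and Ifi35 were kept in both genotypes in each of the 12 fits that left out 1 array and under each of 10 other settings of the test.

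Xaf1, Isg20 and Cxcl10 passed in LG2KO livers and not in control livers, and the interaction of genotype and feeding did not pass for any of them. The split depends on the setting: in control livers Isg20 passed with array weights (0.51, adjusted p = 0.0214), and Xaf1 passed among genes above the median level only (adjusted p = 0.0449) and without LG2KO fasted replicate 1 (0.58, adjusted p = 0.0365). Cxcl10, the chemokine that draws T cells through the receptor CXCR3, was at 6.999, 6.83 and 6.84 in refed LG2KO livers, against 5.94, 6.09 and 5.84 in fasted ones, a difference of 0.93 ± 0.21 (adjusted p = 0.0167). In control livers it was at 6.38, 6.21 and 6.90 after refeeding, against 6.07, 6.51 and 5.70 in the fasted state, a difference of 0.40 ± 0.21 (adjusted p = 0.379). The LG2KO arrays were tight within a group and did not overlap, while the control arrays did overlap. The call was lost without LG2KO refed replicate 1 (0.88), LG2KO refed replicate 2 (0.96), LG2KO refed replicate 3 (0.96) or LG2KO fasted replicate 1 (0.92).

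Isg20, an exonuclease that degrades single-stranded RNA, was at 7.77, 7.71 and 7.93 in refed LG2KO livers, against 7.22, 7.15 and 7.19 in fasted ones. Its difference there was 0.62 ± 0.15 (adjusted p = 0.0276), with no overlap. In control livers the refed arrays were at 7.08, 7.56 and 7.39, against 7.25, 6.73 and 7.02 in fasted ones, with a difference of 0.34 ± 0.15 (adjusted p = 0.268). The LG2KO call was lost without LG2KO refed replicate 1 (0.63), 2 (0.66) or 3 (0.55), or LG2KO fasted replicate 1 (0.63) or 2 (0.60). Xaf1, a proapoptotic partner of XIAP, was at 8.83, 8.48 and 8.87 in refed LG2KO livers, against 7.72, 8.30 and 8.25 in fasted ones, and at 8.46, 8.35 and 8.32 in refed control livers, against 7.51, 7.99 and 7.88 in fasted ones. Neither genotype showed overlap. Its differences were 0.64 ± 0.17 in LG2KO livers (adjusted p = 0.0443) and 0.58 ± 0.17 in control livers (adjusted p = 0.0731), on either side of the threshold. The LG2KO call of Xaf1 was kept in 4 of the 12 fits that left out 1 array, those without control refed replicate 1, LG2KO refed replicate 2, control fasted replicate 1 or LG2KO fasted replicate 3, with differences between 0.46 and 0.76 over the 12. With the mean of its probe sets in place of the brightest one the difference of Xaf1 in LG2KO livers was -0.13 (adjusted p = 0.905).

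**Figure D2:**
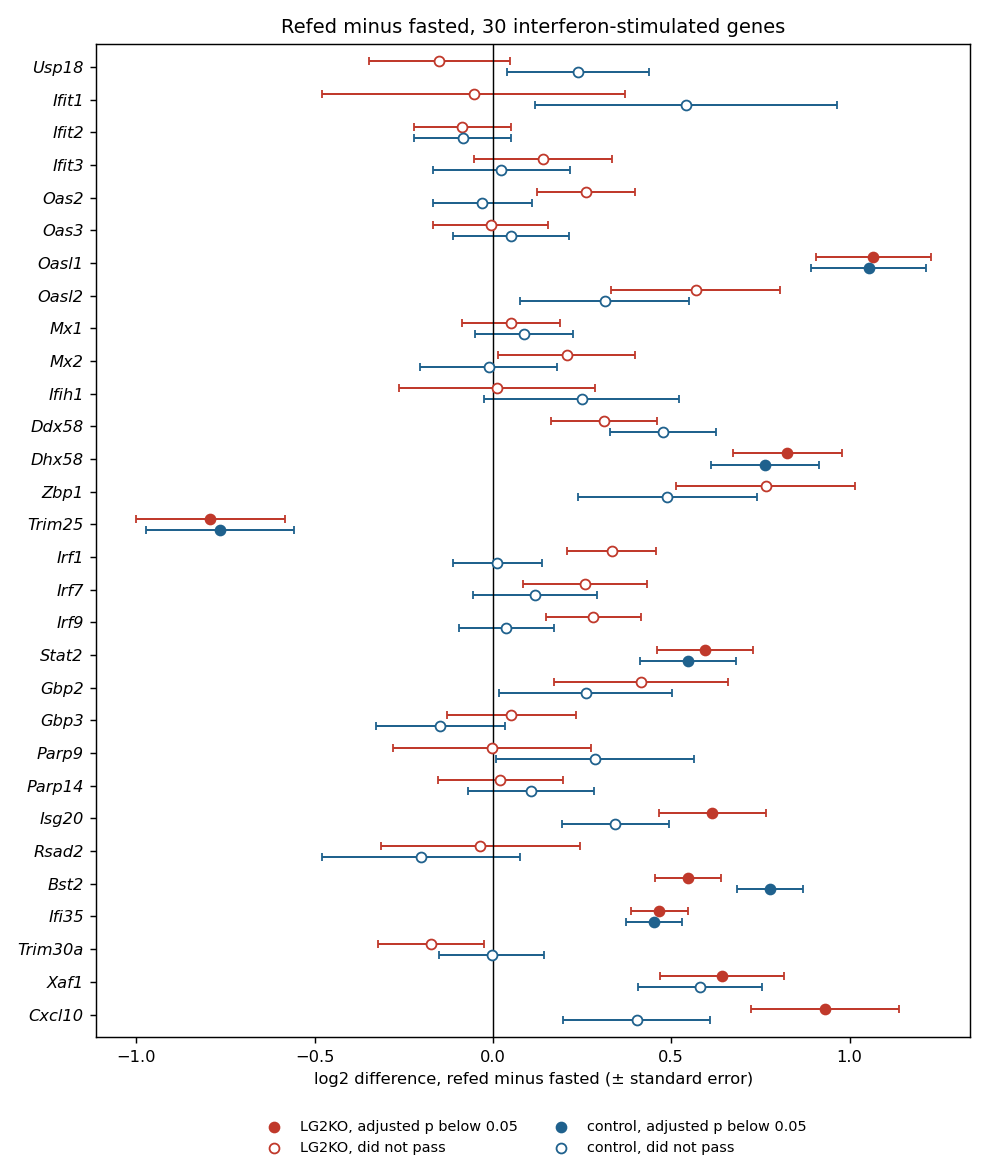
Log2 difference, refed minus fasted, with its standard error (horizontal axis) for the 30 measured members in LG2KO and control livers; filled points passed at an adjusted p below 0.05. Trim25 lies lowest, at -0.79 in LG2KO and -0.77 in control livers, and Oasl1 highest, at 1.07 and 1.05.

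The IFIT and Mx families, Rsad2 and Usp18 did not pass with feeding. Ifit1, Ifit2 and Ifit3, which bind viral RNA or restrain translation, had differences of -0.05, -0.09 and 0.14 in LG2KO livers and of 0.54, -0.09 and 0.02 in control livers, with adjusted p between 0.640 and 0.980. The control value of Ifit1 came with a wide error, 0.42, since control refed replicate 1 was at 5.39 and the other refed controls at 3.67 and 3.93. Without the 2 arrays that stand apart the Ifit1 difference was -0.36 in LG2KO livers and 0.01 in control livers. Mx1 and Mx2, dynamin-like GTPases that block viral nucleocapsids, differed by 0.05 and 0.21 in LG2KO livers and by 0.09 and -0.01 in control livers. Rsad2, or viperin, which makes a chain-terminating nucleotide, was at 7.20, 6.89 and 7.70 in refed LG2KO livers, against 7.67, 7.34 and 6.88 in fasted ones. Its difference was -0.04 ± 0.28 in LG2KO livers and -0.20 ± 0.28 in control livers. Usp18, the protease that removes ISG15 and blocks IFNAR2 signalling, differed by -0.15 ± 0.20 in LG2KO livers and by 0.24 ± 0.20 in control livers. None of these passed. Their refed and fasted arrays overlapped, other than those of Mx2 in LG2KO livers, where the refed arrays were the higher.

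The guanylate-binding GTPases and the mono-ADP-ribosyltransferases did not pass either. Gbp2 and Gbp3, which attack pathogen vacuoles, differed by 0.42 and 0.05 in LG2KO livers and by 0.26 and -0.15 in control livers. The LG2KO value of Gbp2 was 0.09 without the 2 arrays that stand apart, as LG2KO fasted replicate 3 was at 4.88 and the other fasted LG2KO arrays at 5.90 and 5.83. Parp9 and Parp14, which act on interferon signalling, differed by -0.00 and 0.02 in LG2KO livers and by 0.29 and 0.11 in control livers. The Parp9 values rest on the same 2 arrays, and without them they were -0.27 in LG2KO livers and -0.07 in control livers. Control refed replicate 1 was at 8.97, with the other refed controls at 7.90 and 7.88, and LG2KO fasted replicate 3 was at 7.36, with the other fasted LG2KO arrays at 8.17 and 8.14. Trim30a, a ligase that restrains NF-kappaB signalling in mouse, differed by -0.17 in LG2KO livers and by -0.00 in control livers. Their refed and fasted arrays overlapped in both genotypes.

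**Figure D3:**
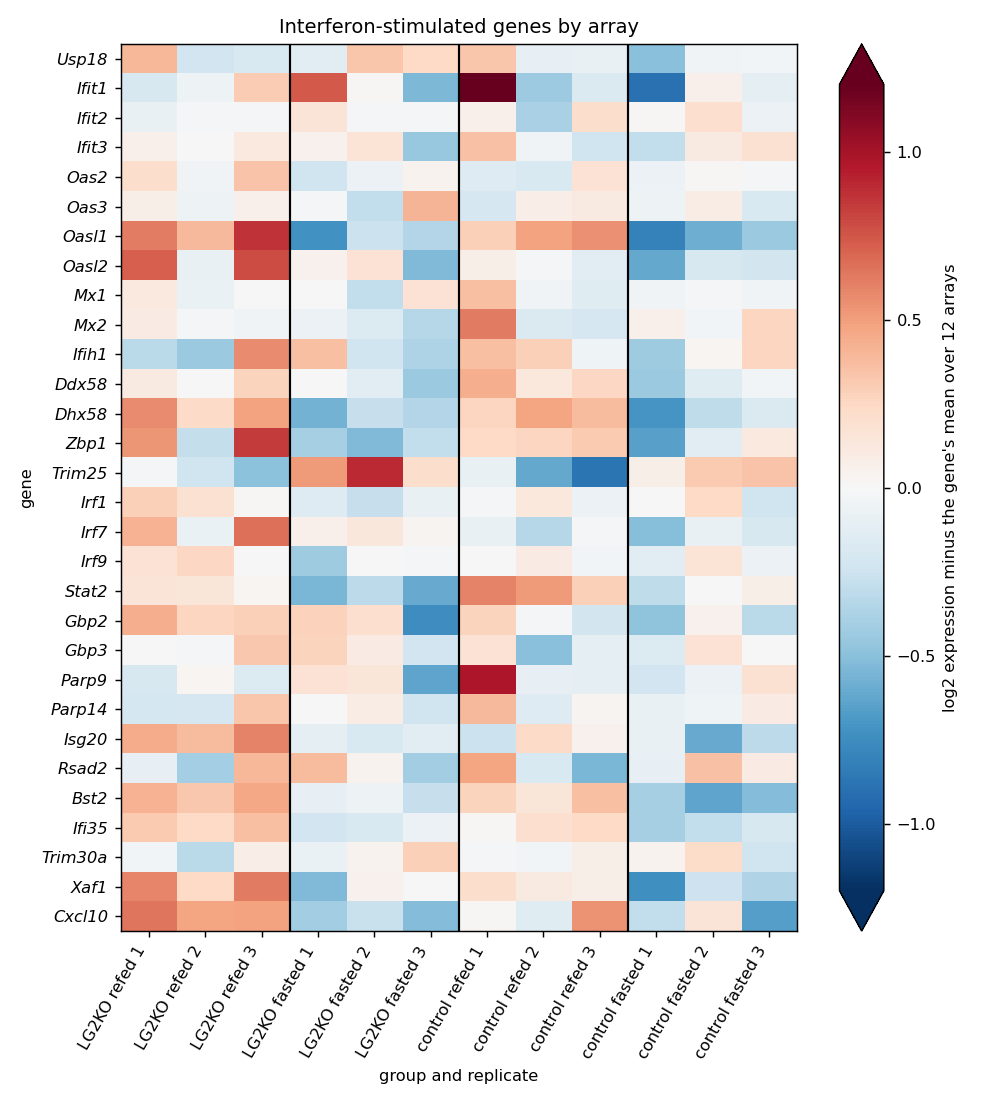
Log2 expression of each measured member minus its mean over the 12 arrays (colour), by array (columns) and gene (rows); colours end at -1.2 and 1.2. Control refed replicate 1 is the highest array for 9 members and LG2KO refed replicate 3 for 11, while control fasted replicate 1 is the lowest for 10.

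Pools of a group differed in the members as a whole. The mean of the 30 members relative to their own averages was 0.21, 0.02 and 0.28 in the refed LG2KO arrays, against -0.06, -0.04 and -0.21 in the fasted LG2KO arrays. It was 0.24, -0.01 and 0.02 in the refed control arrays, against -0.31, -0.04 and -0.09 in the fasted control arrays. Within each group 1 pool stood off: LG2KO refed replicate 2 was below its group, LG2KO fasted replicate 3 was below its group, control refed replicate 1 was above and control fasted replicate 1 below. Ifit1, Parp9 and Mx2 were high on control refed replicate 1, where Mx2 was at 6.76 against 5.97 and 5.93 on the other refed control arrays.

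The second question was whether the members differ between the genotypes. In refed livers none of the 30 passed, against 0.379% of all genes, and 3 (10%) had an unadjusted p below 0.05, against 9.13% of all genes. The median LG2KO minus control difference was 0.07 over the members and 0.02 over all genes, and single members lay between -0.36 and 0.50. In fasted livers none passed, against 0.396% of all genes, and 2 (6.67%) had an unadjusted p below 0.05, against 5.20% of all genes. There the median was 0.01 over the members and -0.00 over all genes, with single members between -0.40 and 0.39. Averaged over the feeding states none passed, against 1.02% of all genes, and 7 (23.3%) had an unadjusted p below 0.05, against 8.86% of all genes. With so few genes called in all, a count of 0 among 30 does not set the members apart. Without the 2 arrays that stand apart the counts were again 0, and the medians were 0.12 in refed and 0.10 in fasted livers.

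Stat2, Bst2, Irf7 and Isg20 had the smallest p-values between genotypes. Stat2 averaged 7.02 ± 0.07 in refed LG2KO livers and 7.37 ± 0.16 in refed controls (SD, n = 3 each), and 6.42 ± 0.16 in fasted LG2KO livers and 6.83 ± 0.20 in fasted controls. Its LG2KO arrays lay below the control arrays in both feeding states, and the difference was -0.36 ± 0.14 in refed (adjusted p = 0.421), -0.40 ± 0.14 in fasted livers (adjusted p = 0.551) and -0.38 ± 0.10 on average (adjusted p = 0.106). Bst2 averaged 10.77 ± 0.07 in refed LG2KO livers and 10.62 ± 0.11 in refed controls, and 10.22 ± 0.11 in fasted LG2KO livers and 9.84 ± 0.12 in fasted controls. The fasted arrays did not overlap and the refed ones did, with differences of 0.37 ± 0.09 in fasted livers (adjusted p = 0.202), 0.14 ± 0.09 in refed livers (adjusted p = 0.701) and 0.26 ± 0.07 on average (adjusted p = 0.111). With array weights, which give less weight to arrays far from their group, Bst2 passed in fasted livers at 0.45 ± 0.08 (adjusted p = 0.0145).

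Irf7 averaged 9.20 ± 0.38 in refed LG2KO livers and 8.72 ± 0.17 in refed controls, and 8.94 ± 0.05 in fasted LG2KO livers and 8.60 ± 0.22 in fasted controls. Its difference was 0.48 ± 0.17 in refed (adjusted p = 0.383), 0.34 ± 0.17 in fasted livers (adjusted p = 0.9999) and 0.41 ± 0.12 on average (adjusted p = 0.200). Irf7 passed on average only without LG2KO refed replicate 2, at 0.52 ± 0.10 (adjusted p = 0.0480). Isg20 averaged 7.80 ± 0.11 in refed LG2KO livers and 7.34 ± 0.24 in refed controls, with no overlap and a difference of 0.46 ± 0.15 (adjusted p = 0.313). In fasted livers its difference was 0.19 ± 0.15. For the other members the 95% intervals were often wide: Ifit1, the widest, had a difference of -0.21 in refed livers with an interval of -1.13 to 0.71, and one of 0.32 without the 2 arrays that stand apart.

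**Figure D4:**
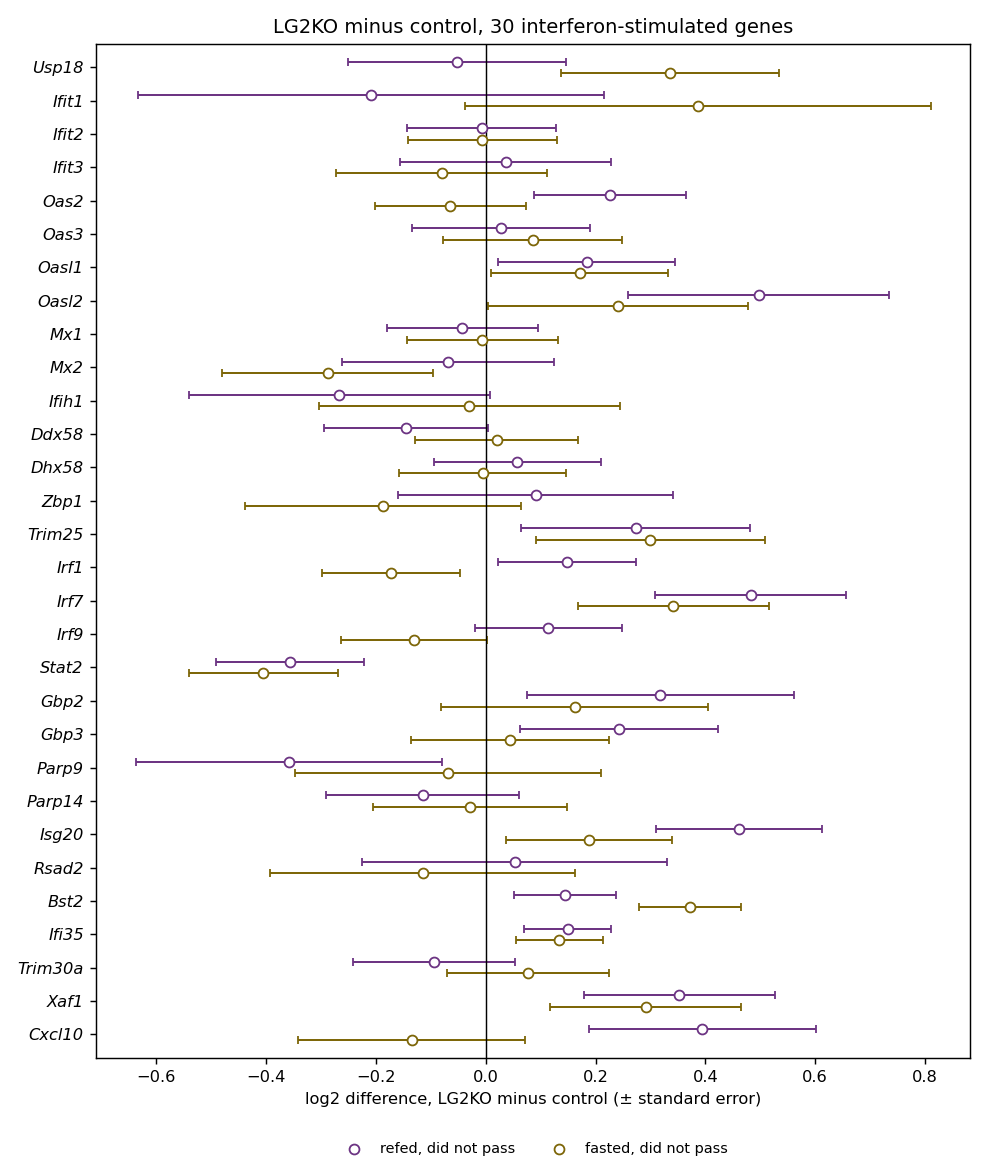
Log2 difference, LG2KO minus control, with its standard error (horizontal axis) for the 30 measured members in refed and in fasted livers. No member passed; Stat2 is negative and Irf7 is positive in both feeding states.

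The third question was whether the response to a meal differs between the genotypes. The interaction, which is the refed minus fasted difference in LG2KO livers minus that in control livers, passed for none of the 30 members, against 0.0055% of all genes, and no member had an unadjusted p below 0.05, against 4.73% of all genes. The count was also 0 without the 2 arrays that stand apart. Irf1 had the smallest p, at 0.32 ± 0.18, followed by Cxcl10 at 0.53 ± 0.29 and Bst2 at -0.23 ± 0.13, each with an adjusted p of 0.990. For Oasl1 the interaction was 0.01 with a 95% interval of -0.48 to 0.51, and for Dhx58 it was 0.06 with one of -0.40 to 0.53. A missed threshold does not show that the genotypes respond alike.

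Around the members, 98 of 117 other genes of the interferon pathway were measured, from the ligands to antigen presentation. In LG2KO livers 7 of the 98 rose and 1 fell with refeeding, or 8.16% against 7.05% of all genes. In control livers 4 rose and 3 fell, or 7.14% against 6.46% of all genes. Both shares are near the background. The median refed minus fasted difference was 0.09 in LG2KO livers and -0.03 in control livers. Of the 8 interferon genes measured, none passed in any comparison in limma. All 8 were dim: the highest group mean among them was 5.59, of Ifna1 in refed LG2KO livers, below the median of all genes, 5.91. Changes in them could therefore be missed. Ifnb1, which encodes interferon beta, averaged 4.26 ± 0.07 in refed and 4.28 ± 0.07 in fasted LG2KO livers (SD, n = 3 each). It averaged 4.14 ± 0.08 in refed controls and 4.29 ± 0.08 in fasted controls.

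Ikbke, the kinase that activates IRF3 and IRF7, rose in both genotypes. It was at 8.87, 8.88 and 8.82 in refed LG2KO livers, against 7.91, 8.13 and 7.72 in fasted ones, a difference of 0.94 ± 0.12 (adjusted p = 0.000611). In control livers it was at 8.68, 8.54 and 8.72 after refeeding, against 7.95, 7.82 and 8.15 in the fasted state, a difference of 0.68 ± 0.12 (adjusted p = 0.00496). Irf2, which represses ISRE-driven genes, fell in both. Irf2 was at 7.25, 7.38 and 7.27 in refed LG2KO livers, against 7.85, 8.09 and 8.06 in fasted ones, and at 7.19, 7.32 and 7.21 in refed control livers, against 7.89, 7.87 and 7.95 in fasted ones. The difference was -0.70 ± 0.10 in LG2KO livers (adjusted p = 0.00130) and -0.67 ± 0.10 in control livers (adjusted p = 0.00176). The refed and fasted arrays of Ikbke and of Irf2 did not overlap, and both calls were kept in each of the 12 fits that left out 1 array.

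Lgals9, encoding galectin-9, rose by 0.24 ± 0.06 in LG2KO livers (adjusted p = 0.0278), a call kept in 7 of the 12 fits that left out 1 array, and by 0.34 ± 0.06 in control livers (adjusted p = 0.00410), a call kept in all 12. In LG2KO livers Irf3 (0.35), Irf5 (0.58), Ifi47 (0.76), Uba7 (0.57) and Ifitm1 (0.51) also rose. Irf3 and Irf5 are transcription factors of the sensing pathways, Ifi47 is an interferon-inducible GTPase, Uba7 is the activating enzyme for ISG15 and Ifitm1 is a membrane protein that hinders viral entry. Each of these calls was lost without at least 3 of the 12 arrays. In control livers Ifnar2, the binding chain of the type I receptor, fell by 0.38 on the log2 scale (adjusted p = 0.00244), a call kept in all 12 fits, and Gbp6, another guanylate-binding protein, rose by 0.88, a call kept in 8 of the 12. Nlrc5, the activator of MHC class I genes, fell by 0.72 in control livers, a call kept in 3 of the 12 fits. Ifnar1 differed by -0.27 in LG2KO livers and -0.32 in control livers, Ifngr1 by -0.24 and -0.25, and Ifngr2 by -0.08 and -0.29. In the same order, Jak1 differed by -0.07 and 0.23 and Tyk2 by 0.37 and 0.08. Socs1, the feedback inhibitor of JAK kinases, differed by 0.21 and -0.03, and Eif2ak2 by 0.17 and -0.06. None of these genes passed. Eif2ak2 was dim, at 3.68 to 4.33 over the arrays, which limits what could be seen.

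Between the genotypes, Ifitm3 was the single pathway gene of the 98 that passed. Ifitm3, which blocks fusion of viruses with endosomes, was at 13.11, 12.99 and 13.17 in refed LG2KO livers, against 12.77, 12.92 and 12.91 in refed controls, and at 12.94, 12.89 and 13.02 in fasted LG2KO livers, against 12.64, 12.52 and 12.58 in fasted controls. LG2KO arrays lay above control arrays in both feeding states. The difference was 0.37 ± 0.06 in fasted livers (adjusted p = 0.0263) and 0.30 ± 0.04 on average (adjusted p = 0.00725). The average was kept in each of the 12 fits that left out 1 array, and the fasted call was lost without any 1 of the 6 fasted arrays. Ifitm3 also rose with refeeding in control livers, by 0.28 ± 0.06 (adjusted p = 0.0173), a call kept in 8 of the 12.

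**Figure D5:**
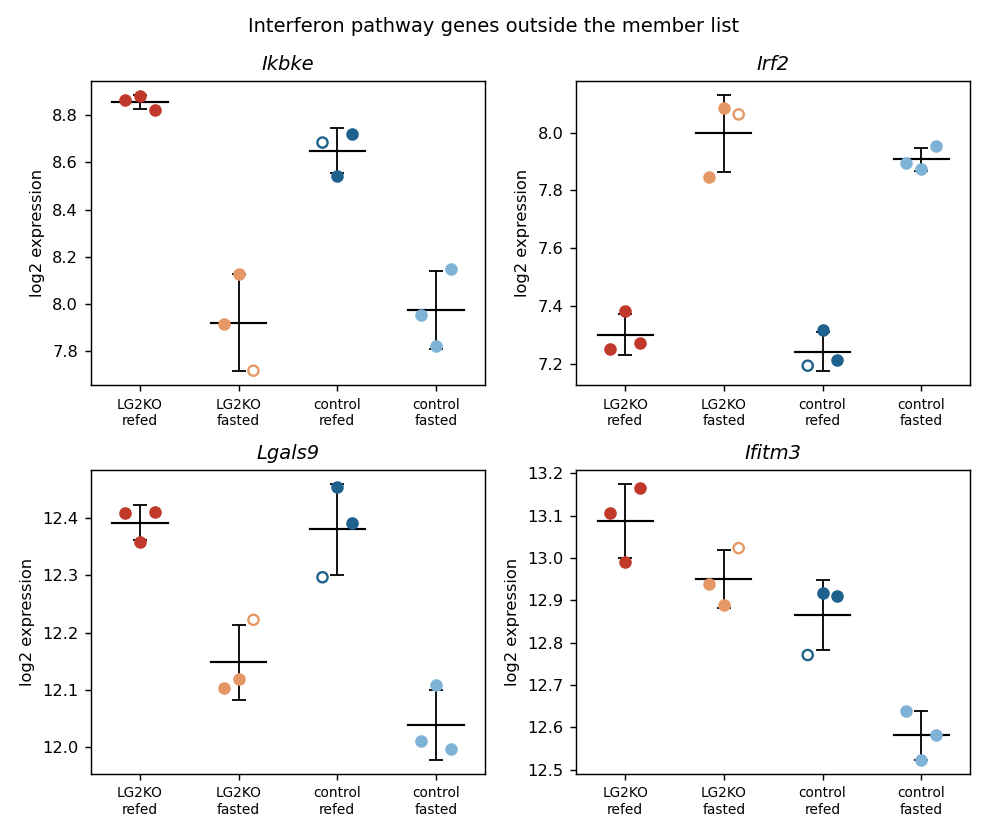
RMA log2 expression (vertical axes, which do not start at 0) of Ikbke, Irf2, Lgals9 and Ifitm3 by group; points are arrays, open points are the 2 arrays that stand apart, lines are means and bars are ± 1 SD (n = 3). Ikbke averages 8.86 in refed and 7.92 in fasted LG2KO livers, and Irf2 averages 7.30 in refed and 7.998 in fasted LG2KO livers.

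Markers of the cells that could bring interferon-stimulated transcripts were read on the same arrays. None of the 12 measured markers of Kupffer cells and macrophages passed in any comparison in limma, and the log2 of their summed level lay between 13.61 and 14.09 in refed LG2KO livers, between 13.54 and 13.69 in fasted LG2KO livers, between 13.57 and 13.62 in refed controls and between 13.56 and 14.02 in fasted controls. Their median refed minus fasted difference was 0.24 in LG2KO livers and -0.07 in control livers. The 10 measured markers of lymphocytes and natural killer cells, the 5 of neutrophils and the pan-leukocyte gene Ptprc did not pass either. Among the 3 markers of plasmacytoid dendritic cells, the main makers of interferon alpha, Siglech and Ccr9 did not pass and Ly6d, which B-cell progenitors also express, was higher in LG2KO livers on average, by 1.36 ± 0.23 (adjusted p = 0.0169), a call lost when either fasted control replicate 2 or fasted LG2KO replicate 2 was left out. Ly6d averaged 8.03 ± 0.81 in refed LG2KO livers and 6.87 ± 0.14 in refed controls, and 8.04 ± 0.46 in fasted LG2KO livers and 6.48 ± 0.22 in fasted controls (SD, n = 3 each). Of the 7 endothelial markers, Stab2, a scavenger receptor, fell by 0.42 with refeeding in control livers, a call kept in 9 of the 12 fits that left out 1 array. The 7 measured hepatocyte markers, Alb and Ttr among them, did not pass, and their summed level lay between 16.47 and 16.59 on every array. RMA values have no true zero, so no marker can be called absent, and the part of these cells in the members' values was not tested.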

How the data were processed

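Liver RNA was hybridised to 12 Affymetrix arrays, each a pool of 3 animals per the labels' protocols. The values deposited by the authors are log2 expression values per probe set, made with RMA per the submitters' processing notes. RMA corrects background, brings arrays to a common distribution and summarises probes, which can hide shifts shared by all genes. Its version and the scanner files were not used here. Of 45101 probe sets, 34958 had 1 symbol in the platform annotation, 932 had several and 9211 were not listed, which gave 18194 genes, each read from its brightest probe set. Precision is limited by the 3 arrays per group.

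R 4.3.3 and limma 3.58.1 were used to fit the differences, using lmFit and a trended eBayes prior over 12 arrays in 4 groups (8 residual degrees of freedom), in 6 comparisons. Tests were two-sided, with Benjamini-Hochberg adjustment over all genes and a threshold of 0.05, and they measure the spread between pools. The fit was tested on simulated data. The members and the lists of pathway and marker genes were chosen with earlier results of these data known. Full statistics go to members that passed and to the 3 with the smallest p per comparison. Pathway genes are named where they passed, at most 4 per list and comparison, and the receptors, JAK1, TYK2, PKR, interferon beta and SOCS1 in any case; other values are shown as background. Same-numbered arrays did not deviate together throughout: 5 of 18 such pairs correlated above 0.1, the highest at 0.71. The replicate number was therefore not used as a block in the main tests. Promoters and motifs were read with Python 3.11.15, and figures were drawn with matplotlib 3.10.9. Alternatives were leaving out 2 arrays or each array, the replicate block, other variance priors, array weights, fewer groups, a filter on dim genes, other scalings, the mean of probe sets and, chosen after seeing the data, a fit of all probe sets.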

Additional observations from a re-analysis of the deposited data

How the results depend on the processing

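In refeeding, under the settings other than leaving out 1 array, between 7 and 11 members passed in LG2KO livers. In control livers between 4 and 8 passed. The 11 and the 8 were reached with array weights, under which calls over all genes rose as well, as given below. The 8 was also reached among genes above the median level only. For most other settings the calls over all genes are not given, so these counts describe the members only. Leaving out 1 array gave 4 to 9 in LG2KO livers and 4 to 6 in control livers, with fewer arrays in the fit. Those counts too are given without the calls over all genes. The median of the members in control refeeding was 0.0705 with array weights and 0.0916 without the 2 arrays that stand apart, and it was between 0.0828 and 0.25 when 1 array was left out. Between the genotypes, array weights gave 1 member in fasted livers, Bst2, and 2 on average, Bst2 at 0.31 (adjusted p = 0.0107) and Trim25 at 0.47 (adjusted p = 0.0452). Leaving out 1 array gave 0 to 1 on average. Calls over all genes are not given for these genotype fits, so their counts cannot be set against a background. Xaf1 in LG2KO refeeding was -0.13 with the mean of its probe sets, since its second probe set ran the other way there. The cause of the other shifts was not tested. With the replicate block 8 members passed in LG2KO refeeding, Xaf1 being lost (adjusted p = 0.0521), 6 in control refeeding and 0 elsewhere. Same-numbered arrays correlated between -0.42 and 0.71, and 12 of 36 correlated best with their own number. The fits with fewer groups give no interaction and no average. Over all 18194 genes, array weights gave 3578 calls in LG2KO refeeding and 2454 in control refeeding, against 1283 and 1176 in the main tests. Dim members such as Ifit2 and Mx1 limit what could be seen.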

Other observations

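The second probe set of Xaf1 took values between 4.20 and 6.17 in a way the groups do not follow. It was at 4.52, 4.64 and 4.62 in refed LG2KO livers and at 6.17, 4.52 and 5.79 in fasted LG2KO livers, and at 4.20, 6.14 and 6.17 in refed controls and at 5.48, 4.60 and 6.13 in fasted controls. Its refed minus fasted difference was -0.90 ± 0.54 in LG2KO livers and 0.10 ± 0.54 in control livers, with a wider error than the 0.17 of the brighter Xaf1 probe set.

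Zbp1 is one member whose second probe set passed in both genotypes while its brightest did not. Where any probe set of a member counts in the fit of all probe sets, Zbp1 joined the members that passed with refeeding in both genotypes. In LG2KO refeeding Xaf1 dropped out in that limma fit (adjusted p = 0.0545). Members with several probe sets have more chances to pass in this way.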
